A study of Homo sapiens with 44 samples.

Results

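The SOCS family comprises SOCS1 to SOCS7 and CISH, the 8 genes whose proteins carry a central SH2 domain and a C-terminal SOCS box. They were taken from the count tables by gene symbol, and all 8 were found among 19923 genes. Measured here were their level, their change with an inhibitor of m6A methylation, and the share of their fragments held by an antibody against m6A. SOCS proteins are feedback brakes on cytokine and growth factor signalling: a cytokine receptor activates JAK kinases, these phosphorylate STAT factors, STATs switch on genes that include several SOCS genes, and the SOCS proteins then block the receptor or the kinase. The SOCS box recruits elongins and a cullin, so that the bound signalling protein is ubiquitinated and degraded. N6-methyladenosine (m6A), placed on mRNA by a complex whose catalytic subunit is METTL3, mostly in sequences around a GGAC core and often near stop codons, marks many short-lived mRNAs, and SOCS mRNAs are known as m6A-destabilised transcripts in T cells.

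The libraries came from Kelly and NGP, established human neuroblastoma cell lines that the labels describe as MYCN-amplified and wild type. Cultured cells received 8 µM STM2457, a small-molecule METTL3 inhibitor, or DMSO. Treatment lasted 1 or 6 days for Kelly and 6 days for NGP. Kelly cells were also grown under the skin of nude mice, which received 50 mg/kg STM2457 or vehicle each day for 14 days. The vehicle group is called DMSO, as in the labels, and the age of the mice is not given in the labels used here. Nude mice lack most T cells but keep other host blood, vessel and stromal cells. For every condition there were input libraries, made from fragmented poly(A) RNA, and RIP libraries, made from the fragments that the m6A antibody pulled down. There were 3 libraries in a group of cultured cells and 2 in a group of tumours. The labels do not say whether replicates were separate cultures or separate animals, so p-values measure the spread between these samples, which may be technical. The 2 tumours of a group named below are its 2 tumour libraries.

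Depth differed between the experiments. Input totals spanned 24.07 to 26.56 M fragments in Kelly at 1 day, and 5.77 to 31.49 M in Kelly at 6 days. NGP inputs held 5.49 to 11.6 M and xenograft inputs 2.14 to 7.27 M, while RIP totals lay between 4.68 and 36.5 M. All 10 noradrenergic neuroblastoma markers had counts in every group, but not at like levels. In NGP DMSO inputs TH had 0.362 to 1.25 CPM (counts per M counted fragments), against 934 to 989 CPM in Kelly at 6 days. DBH had 85.4 to 143 CPM against 1593 to 1618 CPM. Of the 10, 2 were called higher and 5 lower in NGP by the edgeR test described below, where 59.7% of all genes were called. Of 18 markers of stroma, vessels and blood, 8 were at 0 in both DMSO tumours, against 7 in DMSO inputs of Kelly at 6 days. COL1A2, DCN and LUM were among the 8, while COL1A1 had 47.9 to 60.4 CPM in the tumours and 31.3 to 35.4 CPM in those Kelly cells. Host cells are mouse cells and the counts are of human genes, so these markers do not measure the amount of host cells. METTL3, whose product the drug blocks without removing its mRNA, had a log2 input change of 0.13 in Kelly at 1 day and did not pass the test, and it checks no label here. Among RIP libraries those of the xenograft varied most: the median SD of log2 CPM over genes of at least 10 CPM was 0.64, against 0.15 in Kelly at 1 day. Among inputs it was 0.19 in the xenograft and 0.20 in NGP.

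The coding sequences of the members differ in how many copies of GGACT, the most common form of the m6A consensus, they hold. Sequences are from the GENCODE 44 transcripts (GRCh38), 5′ to 3′ on the sense strand, with each GGACT in capitals. CISH, SOCS2 and SOCS3 each have 1 copy in the last 150 coding bases, which end in the stop codon, and SOCS1 is shown beside them as the member with no copy in its whole coding sequence. The stretches are chr3:50607607-50607756 (minus strand) for CISH, chr12:93575030-93575179 (plus strand) for SOCS2, chr17:78358418-78358567 (minus strand) for SOCS3 and chr16:11254843-11254992 (minus strand) for SOCS1. Each lies in a single coding exon.
CISH: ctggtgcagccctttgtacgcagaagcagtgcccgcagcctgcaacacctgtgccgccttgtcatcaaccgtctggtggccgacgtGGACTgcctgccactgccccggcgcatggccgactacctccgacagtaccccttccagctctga
SOCS2: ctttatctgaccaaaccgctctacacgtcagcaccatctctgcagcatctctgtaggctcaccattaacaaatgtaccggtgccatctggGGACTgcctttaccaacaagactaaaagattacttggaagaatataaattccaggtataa
SOCS3: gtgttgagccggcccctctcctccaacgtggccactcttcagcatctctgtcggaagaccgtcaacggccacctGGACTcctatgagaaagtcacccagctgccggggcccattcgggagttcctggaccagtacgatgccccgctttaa
SOCS1: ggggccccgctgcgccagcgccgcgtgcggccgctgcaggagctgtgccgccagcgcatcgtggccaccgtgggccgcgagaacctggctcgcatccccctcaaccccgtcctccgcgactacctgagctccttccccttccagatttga
SOCS5 has 5 copies in its coding sequence, and 4 of them fall in the 240 bases at chr2:46759738-46759977 (plus strand), coding bases 1208 to 1447.
SOCS5: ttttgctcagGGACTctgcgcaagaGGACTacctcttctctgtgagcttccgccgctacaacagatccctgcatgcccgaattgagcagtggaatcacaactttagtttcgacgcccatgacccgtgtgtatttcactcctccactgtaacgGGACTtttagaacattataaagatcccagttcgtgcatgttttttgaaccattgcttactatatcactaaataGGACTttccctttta

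Of the 8 coding sequences, 7 held GGACT, against 72.7% of 19061 coding sequences in the annotation. CISH had 3.86 copies per kb, SOCS2 3.35, SOCS5 3.10 and SOCS6 2.49, and SOCS7 had 1.55, SOCS4 1.51 and SOCS3 1.47. The median over all coding sequences was 0.972 per kb, so SOCS1 alone lay below it. Over the whole mRNA SOCS4 had 0.724 copies per kb and SOCS1 0, both under the median of 0.924, and the other members lay above it. Of all coding sequences, 16.4% held a copy in the last 150 bases. The search was for these 5 letters on the sense strand, and a match is a description of the letters, not a methylated site.

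The members lie on separate loci in GRCh38. SOCS1 is at chr16:11254408-11256204 (minus strand), SOCS2 at chr12:93569814-93583487 (plus), SOCS3 at chr17:78356778-78360077 (minus) and SOCS4 at chr14:55027230-55049489 (plus). SOCS5 is at chr2:46698952-46780245 (plus), SOCS6 at chr18:70289045-70330199 (plus), SOCS7 at chr17:38351844-38405593 (plus) and CISH at chr3:50606490-50611831 (minus). Values cover the exons of each gene. The exons of CISH overlap those of MAPKAPK3 on the opposite strand over 218 bases, 4.26% of its exon length. The other members overlap no listed gene.

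The order of the members by level differed between the cell lines and times. Levels of different genes are set against each other as FPKM, fragments per kb of exon and per M counted fragments, in DMSO inputs (mean ± SD, n = 3 unless stated). In Kelly at 1 day SOCS7 was highest at 6.74 ± 0.32 FPKM, followed by SOCS4 at 4.11 ± 0.70 and SOCS6 at 2.73 ± 0.24. SOCS7 binds adaptor and insulin receptor substrate proteins, and SOCS4 and SOCS6 are mainly linked to receptor tyrosine kinase signalling. Then came SOCS3 at 2.05 ± 0.17, SOCS2 at 1.71 ± 0.20, SOCS5 at 1.63 ± 0.09 and CISH at 1.04 ± 0.15, while SOCS1 stood at 0.053 ± 0.054. Only SOCS2 and SOCS5 overlapped their neighbour in that order.

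In Kelly at 6 days SOCS2, which restrains growth hormone signalling, led with 3.61 ± 0.50 FPKM. SOCS3, the brake on receptors that use gp130, followed with 3.25 ± 0.26 and SOCS7 with 2.78 ± 0.31, and each overlapped the next. SOCS4 had 1.74 ± 0.10, and CISH, SOCS1, SOCS6 and SOCS5 lay together between 0.797 and 0.977. In NGP SOCS2 had 8.15 ± 0.93 FPKM and was above every other member in all libraries. SOCS7 with 4.63 ± 0.64, SOCS4 with 4.08 ± 0.78 and SOCS1 with 2.83 ± 1.19 overlapped in sequence. SOCS5 had 1.42 ± 0.32, SOCS6 1.12 ± 0.22 and CISH 0.886 ± 0.312 FPKM, and SOCS3 was last with 0.385 ± 0.417. SOCS3 was therefore near the top of the order in Kelly at 6 days and at its end, overlapping CISH, in NGP. In the xenograft's DMSO inputs (n = 2) SOCS7 had 1.75 ± 0.42, SOCS2 1.56 ± 0.64, SOCS3 1.41 ± 1.63 and SOCS4 1.28 ± 0.18 FPKM. SOCS5 had 0.796 ± 0.762, CISH 0.662 ± 0.479 and SOCS6 0.479 ± 0.621 FPKM there, and SOCS1 had 0 counts in both libraries. Each of the 7 members with counts overlapped the next in that order.

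**Figure D1:**
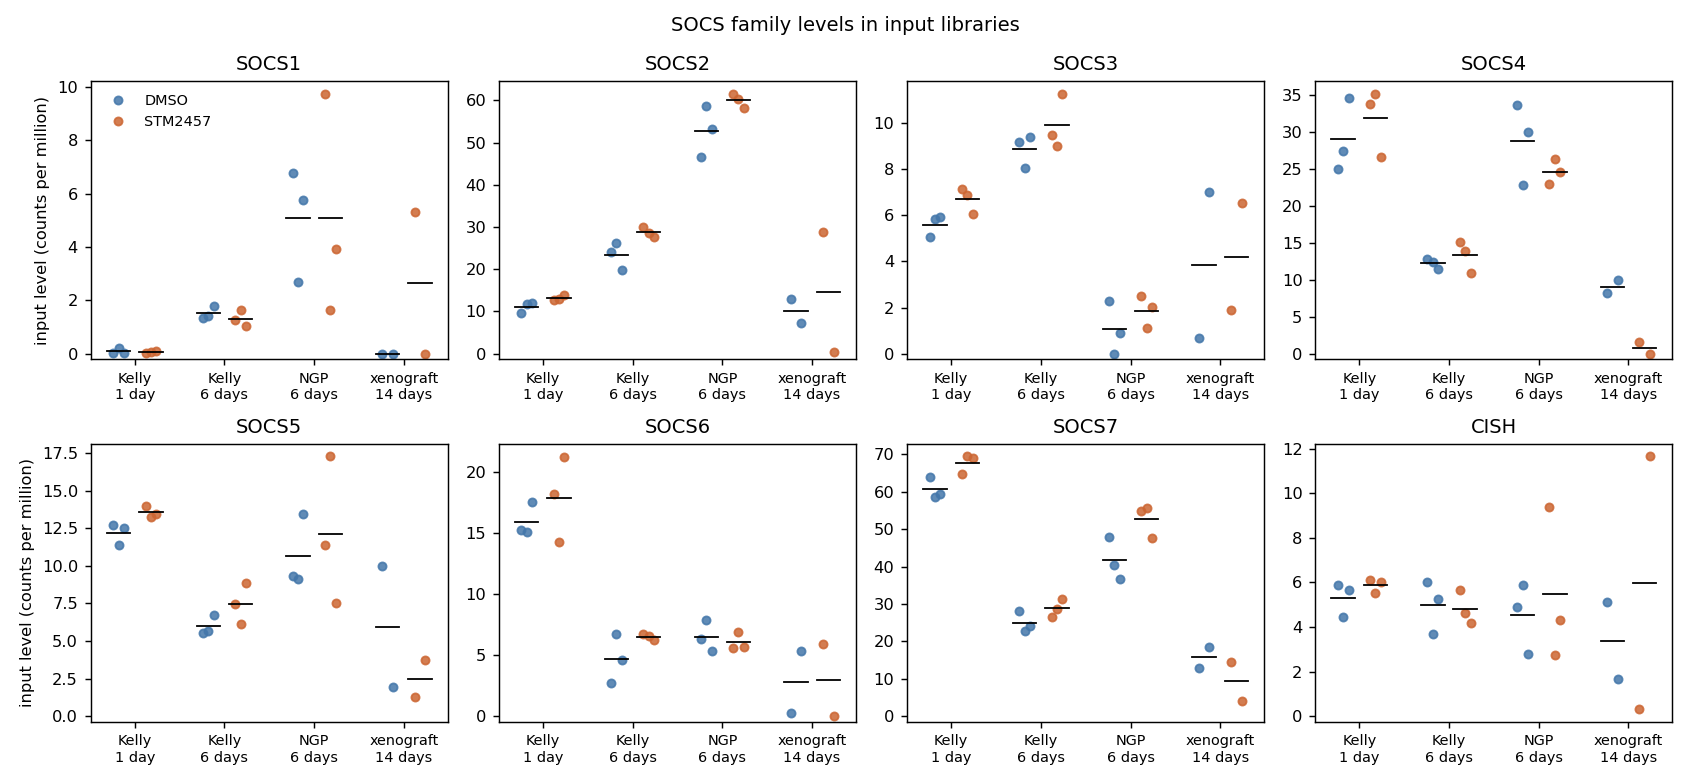
Level of each SOCS family member in every input library, in CPM on a linear axis of its own for each gene, by experiment, with DMSO in blue and STM2457 in orange. Points are libraries and bars are group means; SOCS2 rises from Kelly at 1 day to NGP, SOCS3 is lowest in NGP, and the 2 xenograft libraries of a group often lie far apart.

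The next comparisons set the DMSO inputs of the experiments against each other in 1 fit. They share the Kelly 6 days libraries, and each experiment lies in folders of its own, as named in the count headers (header folders). What these folders stand for is not given, so experiment and any batch cannot be told apart. CPM, on which overlap was judged, are set against library totals, while the log2 differences use TMM factors. The sizes on these scales can therefore differ, and so can the sign of a small difference. Between Kelly at 6 days and at 1 day, 5 of 8 members were called by edgeR's quasi-likelihood test (Benjamini-Hochberg adjusted p under 0.05), where 61.5% of all genes tested were called. SOCS2 rose from 9.58, 11.6 and 11.9 CPM at 1 day to 24.2, 26.1 and 19.8 CPM at 6 days. The groups did not overlap, and the log2 difference was 1.48 ± 0.20 (SE), with an edgeR adjusted p of 8.1e-06. SOCS1, the direct inhibitor of JAK kinases, had 1, 5 and 1 counts at 1 day and 16, 18 and 22 counts at 6 days. Summed over the libraries and set against their totals, that was a ratio of 16.4 with a counting interval of 7.47 to 42.7 (95%, counting error only), and the edgeR adjusted p was 0.000156.

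SOCS7, SOCS4 and SOCS6 were lower at 6 days. SOCS7 had 64.0, 58.7 and 59.4 CPM at 1 day and 28.2, 22.8 and 24.1 CPM at 6 days, a log2 difference of -0.88 ± 0.15 (SE). SOCS4 had a log2 difference of -0.84 ± 0.18 and SOCS6 one of -1.36 ± 0.44. In each of these 3 genes the groups did not overlap in CPM. SOCS3 and SOCS5, which did not pass the test, did not overlap either. The share of all genes without overlap between these groups was not counted. The call for SOCS6 was lost without library 3 of the 1 day inputs (edgeR adjusted p = 0.0526) and without library 1 of the 6 days inputs (0.0753). SOCS3 at 1.06 (95% interval -0.06 to 2.19), SOCS5 at -0.63 (-1.41 to 0.14) and CISH at 0.30 (-0.54 to 1.15) did not pass the test. The mean of CISH was 5.32 CPM at 1 day and 4.99 CPM at 6 days, so its sign depended on the scale. SOCS3 passed without NGP library 2 or either tumour library and SOCS5 without either tumour library, with edgeR adjusted p-values between 0.0149 and 0.0275, since all DMSO inputs share the estimate of spread.

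Between NGP and Kelly at 6 days, 5 of 8 members were called, with 59.7% of all genes. SOCS3 had 9.18, 8.06 and 9.39 CPM in Kelly and 2.26, 0 and 0.895 CPM in NGP. The log2 difference was -3.09 ± 0.64 (SE), with an edgeR adjusted p of 0.000585, and it lay between -4.15 and -2.67 with 1 library left out at a time. SOCS2 was higher in NGP, at 46.5, 58.5 and 53.3 CPM, by 1.00 ± 0.20 on the log2 scale. SOCS4 was higher by 1.06 ± 0.19 and SOCS7 by 0.56 ± 0.15. SOCS1 was higher by 1.58 ± 0.61 (edgeR adjusted p = 0.0349), a call lost with any of the 3 Kelly libraries or with NGP library 1 or 3 left out (edgeR adjusted p from 0.0715 to 0.108). SOCS5 (0.66, interval -0.14 to 1.47), SOCS6 (0.28, -0.69 to 1.26) and CISH (-0.34, -1.23 to 0.55) did not pass, and SOCS5 passed without either tumour library (edgeR adjusted p of 0.0184 and 0.0168).

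Between the Kelly tumours and cultured Kelly cells at 6 days, 3 of 8 members were called, with 39.5% of all genes, and all 3 were lower in tumours, as were 21.8% of all genes. SOCS2 had 13.02 and 7.15 CPM in the DMSO tumours, with a log2 difference of -1.24 ± 0.26 (SE). SOCS7 had 13.02 and 18.4 CPM, with a log2 difference of -0.63 ± 0.19. The call for SOCS7 was lost without tumour library 1 (edgeR adjusted p = 0.101) or Kelly library 1 (0.0574). SOCS1 had 0 counts in both tumour inputs, and against a floor of 3 counts per tumour library it was at least 2.71-fold lower than in cultured cells. Without tumour library 2, SOCS3 and SOCS6 were called as well, with 1 tumour library left in the fit. The share of all genes called in that fit is not given here. In bulk tumours, fewer cells of a type and less RNA per cell cannot be told apart.

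STM2457 did not change the input level of any member beyond the threshold in any experiment. The test called 0 of 7 members in Kelly at 1 day, where SOCS1 was under the filter on low counts, 0 of 8 in Kelly at 6 days and 0 of 8 in NGP. Over all genes tested, 17.5%, 26.6% and 4.23% were called in the same edgeR fits. Without adjustment the count of members at p under 0.05 was 0 in each of these experiments, and DESeq2 also called 0.

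At 1 day in Kelly all 7 members tested had a log2 change above 0, with a median of 0.13 against 0.01 over all genes. SOCS2 had 9.58, 11.6 and 11.9 CPM with DMSO and 12.8, 12.9 and 13.9 CPM with STM2457. The groups did not overlap, and the log2 change was 0.23 (95% interval -0.03 to 0.49, edgeR adjusted p = 0.214). SOCS7 had 64.7, 69.6 and 68.9 CPM with STM2457, all above its DMSO libraries, and a log2 change of 0.13 (-0.00 to 0.27). SOCS3 had 5.06, 5.84 and 5.91 CPM with DMSO and 7.16, 6.87 and 6.07 CPM with STM2457, and SOCS5 had 12.7, 11.4 and 12.5 CPM against 14.0, 13.2 and 13.4 CPM. In these 4 of 7 members every STM2457 library lay above every DMSO library, an arrangement that 20.8% of all genes tested showed. SOCS4, SOCS6 and CISH overlapped between the groups. Without STM2457 library 3 the change of SOCS6 was -0.002.

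The intervals bound what a change could be. At 1 day the widest upper bound was that of SOCS3, at 0.56 on the log2 scale, and the lowest lower bound was that of CISH, at -0.23. At 6 days SOCS2 had 24.2, 26.1 and 19.8 CPM with DMSO and 30.0, 28.6 and 27.6 CPM with STM2457, again without overlap, and a log2 change of 0.20 (-0.04 to 0.44). It was 1 of 8 members with every STM2457 library above, against 29.6% of all genes. SOCS6 had the highest value, 0.38 (-0.17 to 0.92), from 2.73, 6.73 and 4.62 CPM with DMSO to 6.77, 6.61 and 6.24 CPM with STM2457. DMSO library 2 lay within the STM2457 range. SOCS1 at -0.23 and CISH at -0.12 were below 0.

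In NGP the intervals were wider. SOCS3 had 25, 0 and 9 counts with DMSO and 29, 6 and 21 with STM2457, and a log2 change of 0.71 with an interval from -1.29 to 2.72. SOCS7 had 48.0, 40.5 and 36.6 CPM with DMSO and 55.0, 55.7 and 47.6 CPM with STM2457, and a log2 change of 0.27 (-0.12 to 0.66). SOCS4 at -0.30 (-0.78 to 0.17) and SOCS6 at -0.18 (-1.12 to 0.76) were below 0. Values of SOCS1, SOCS5 and CISH took either sign as single libraries were left out. The responses of the experiments were also set against each other, with 0 of 8 members called for Kelly at 6 days against 1 day (8.41% of all genes) and 0 of 8 for Kelly against NGP at 6 days (1.36%). No member reached an unadjusted p under 0.05 in edgeR in either, and DESeq2 called 0. Intervals of the differences ran from -1.58 to 2.58 in the first and from -2.04 to 1.57 in the second.

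**Figure D2:**
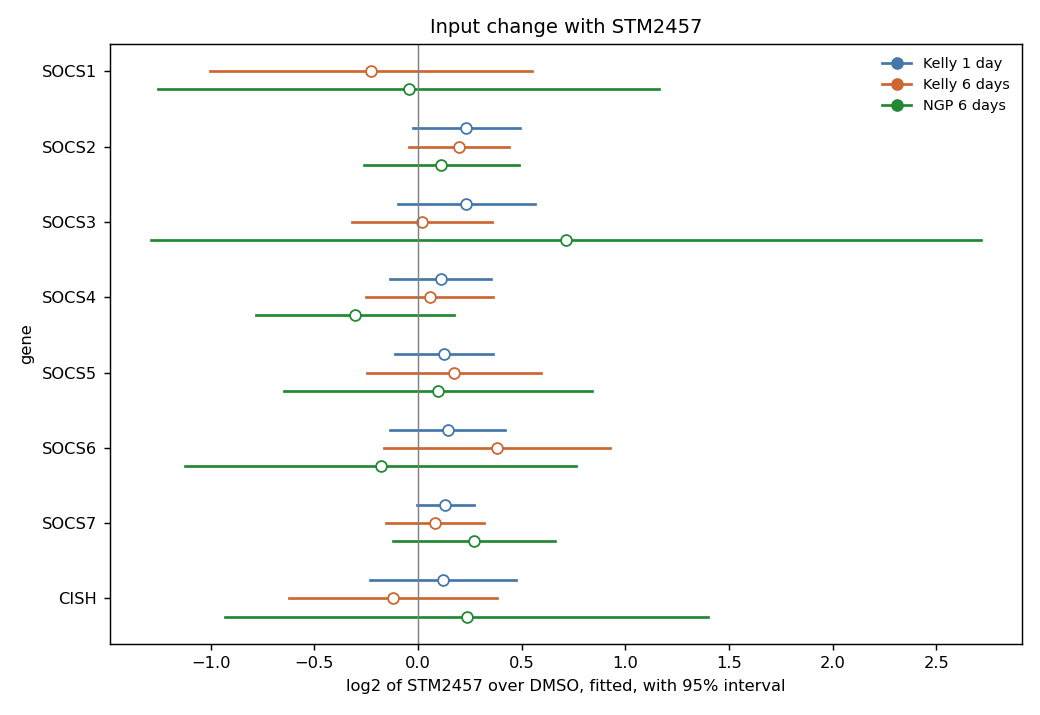
Log2 input change of each member with STM2457 (x axis, fitted, with 95% intervals) in Kelly at 1 day (blue), Kelly at 6 days (orange) and NGP at 6 days (green). Open points did not pass the test, and all are open; SOCS1 was not tested at 1 day, and the widest intervals are those of SOCS3, SOCS1 and CISH in NGP.

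Most members were enriched in the m6A pulldown in cultured Kelly cells. Enrichment is the log2 ratio of RIP over input in the DMSO libraries, and a gene counts as enriched when it passes the test and reaches 2-fold. In Kelly at 1 day 6 of 7 members tested were enriched, where 26.3% of all genes were. Inputs and RIP libraries of that experiment lie in separate header folders, so folder and library type cannot be told apart in any of its ratios. In Kelly at 6 days 7 of 8 were enriched against 25.8%, and in NGP 3 of 8 against 20.9%. SOCS4, SOCS5 and SOCS6 were enriched in all 3 experiments. These ratios use TMM scaling, which sets the median gene near 0. With 13 mitochondrial mRNAs as the reference, the median of all genes lay at 1.57, 4.77 and 0.857 in the 3 experiments, and 6 of 7, 8 of 8 and 6 of 8 members lay above it.

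SOCS5, which has been linked to EGF receptor and interleukin 4 signalling, had 12.7, 11.4 and 12.5 CPM in the Kelly 1 day inputs and 141, 139 and 130 CPM in the RIP libraries. Its enrichment was 3.54 ± 0.13 (SE) on the log2 scale, with an edgeR adjusted p of 5.59e-11. It was 3.11 ± 0.36 in Kelly at 6 days and 2.41 ± 0.30 in NGP. SOCS5 is the member with the run of 4 GGACT shown above. SOCS6 went from 15.2, 15.1 and 17.5 CPM to 138, 146 and 167 CPM in Kelly at 1 day, with an enrichment of 3.29 ± 0.17. Its values were 2.46 ± 0.39 in Kelly at 6 days and 2.33 ± 0.25 in NGP. In neither gene did an input library reach the lowest RIP library of its experiment.

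SOCS4 was enriched by 2.07 ± 0.14 at 1 day and 2.38 ± 0.37 at 6 days in Kelly, and by 2.93 ± 0.21 in NGP. In NGP its inputs had 33.6, 22.7 and 29.9 CPM and its RIP libraries 206, 273 and 223 CPM. It was the most enriched member there, with 1.51 copies of GGACT per kb of coding sequence, fewer than CISH, SOCS2, SOCS5, SOCS6 and SOCS7. Per kb of mRNA it had 0.724 copies, fewer than any member but SOCS1. Per kb of mRNA SOCS2 and SOCS5 both had 1.68 copies. SOCS2, with 3.35 copies per kb of coding sequence, had the lowest ratio among the enriched members in both Kelly experiments. Its enrichment was 1.21 ± 0.22, 1.04 ± 0.29 and 0.96 ± 0.18 in the 3 experiments, and the last passed the test (edgeR adjusted p = 0.000104) but not the 2-fold limit. Ratios of whole genes do not show where the pulled-down fragments lie.

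SOCS3 was enriched in Kelly and showed no clear ratio in NGP. In Kelly at 1 day it had 5.06, 5.84 and 5.91 CPM in inputs and 18.3, 19.1 and 13.9 CPM in RIP libraries, an enrichment of 1.67 ± 0.29, and at 6 days 1.34 ± 0.36. In NGP its RIP libraries had 2.00, 0.706 and 0.914 CPM, beside inputs of 2.26, 0 and 0.895 CPM. The ratio there was 0.02 with an interval from -1.72 to 1.75, which the low level leaves wide. SOCS1 passed in neither experiment in which it was tested, with 0.78 (-1.22 to 2.78) in Kelly at 6 days and -0.28 (-1.43 to 0.87) in NGP. In Kelly at 1 day it had 45, 0 and 0 counts in the RIP libraries, so 1 library held all of them.

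**Figure D3:**
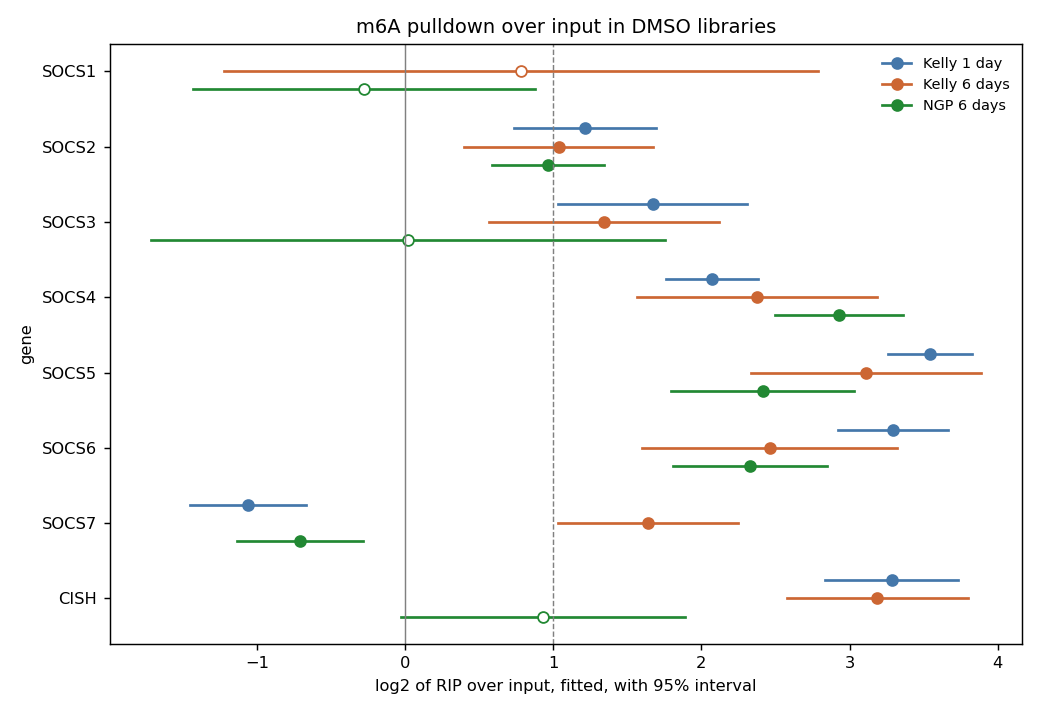
Log2 ratio of RIP over input in DMSO libraries (x axis, fitted with TMM scaling, 95% intervals) for each member in Kelly at 1 day (blue), Kelly at 6 days (orange) and NGP at 6 days (green). Filled points passed the test and the dashed line marks 2-fold; SOCS4, SOCS5 and SOCS6 are right of it in all 3 experiments, while SOCS7 is right of 0 only in Kelly at 6 days.

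SOCS7 and CISH differed in enrichment between experiments. SOCS7 had 64.0, 58.7 and 59.4 CPM in the Kelly 1 day inputs and 31.1, 29.4 and 23.2 CPM in the RIP libraries, so that every RIP library lay below every input. At 6 days it had 28.2, 22.8 and 24.1 CPM in inputs and 71.8, 65.6 and 103 CPM in RIP libraries, the reverse order without overlap. In NGP it had 48.0, 40.5 and 36.6 CPM in inputs and 32.4, 27.3 and 21.9 CPM in RIP libraries. The fitted ratios were -1.06 ± 0.18 at 1 day and 1.64 ± 0.28 at 6 days in Kelly, and -0.71 ± 0.21 in NGP. All 3 passed the test under TMM scaling, with edgeR adjusted p-values of 0.000151, 0.000301 and 0.00517. With the mitochondrial reference the first and the last turned positive, at 0.58 and 0.09, both under the median of all genes. Of all genes, 29.1% were depleted at least 2-fold in Kelly at 1 day and 19% in NGP.

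The difference of these ratios was tested directly, a comparison added after the values had been seen. For SOCS7 it was 2.91 ± 0.28 (SE) between Kelly at 6 days and at 1 day (edgeR adjusted p = 1.33e-05) and 2.52 ± 0.32 between Kelly and NGP at 6 days (2.71e-05). These comparisons share the Kelly 6 days libraries. With 1 library left out at a time the values ran from 2.70 to 3.12 and from 2.28 to 2.66. SOCS7 was the only member called in the first, where 24.4% of all genes were called. Without library 3 of the Kelly 6 days DMSO RIP group, SOCS4 was called too, which made 2 of 8. With the mitochondrial reference the values for SOCS7 were 6.20 and 6.69, beside medians of all genes of 3.11 and 3.86, and 7 and 8 members were called, as were 82.4% and 77.2% of all genes. Inputs and RIP libraries of Kelly at 1 day lie in separate header folders and those of the other experiments do not. Folder and library type therefore cannot be told apart in Kelly at 1 day, nor folder and experiment in these differences.

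CISH, the brake on STAT5 signalling from the receptors for erythropoietin, prolactin and growth hormone, was among the most enriched members in Kelly. It had 5.88, 4.43 and 5.65 CPM in the Kelly 1 day inputs and 49.9, 38.8 and 61.1 CPM in RIP libraries, an enrichment of 3.29 ± 0.21, and at 6 days 3.19 ± 0.28. In NGP the inputs were at a like level, 4.89, 5.91 and 2.79 CPM, and the RIP libraries had 13.5, 8.80 and 5.23 CPM. The ratio in NGP was 0.93 (-0.03 to 1.89, edgeR adjusted p = 0.0925). Without NGP DMSO RIP library 3 it was 1.20 and passed (edgeR adjusted p = 0.0426), and 5 of 8 members were then enriched at least 2-fold. The share of all genes enriched in that fit is not given here. The difference between Kelly and NGP at 6 days was 2.43 ± 0.52 (edgeR adjusted p = 0.00136), and 46.1% of all genes were called in that comparison. Between the Kelly time points the difference was 0.12, with an interval from -0.59 to 0.82. CISH and SOCS7 were the 2 of 8 members called between the lines, and SOCS5 without Kelly DMSO RIP library 3 or NGP DMSO RIP library 1, or SOCS3 without NGP DMSO input library 2, joined them.

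**Figure D4:**
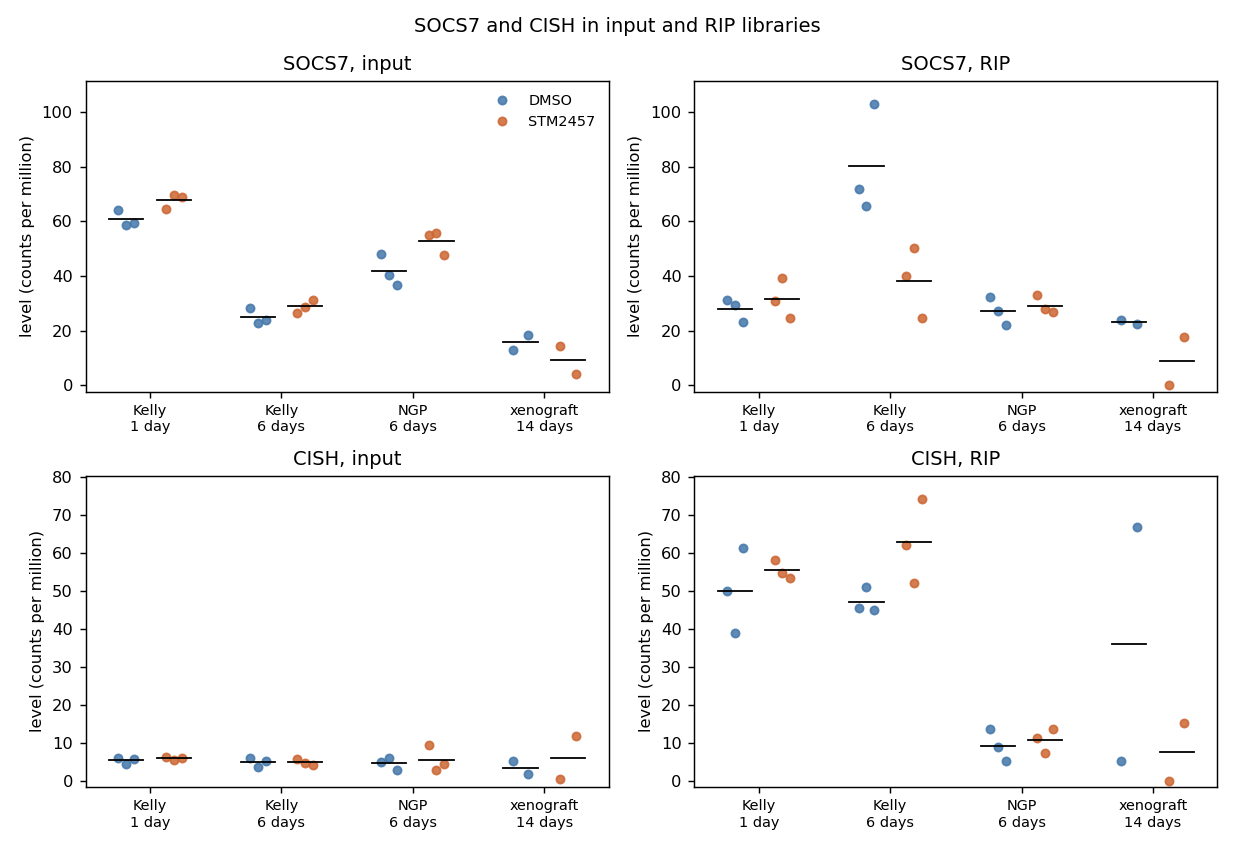
Level of SOCS7 (top) and CISH (bottom) in input libraries (left) and RIP libraries (right), in CPM on linear axes shared within each gene, with DMSO in blue, STM2457 in orange and bars at the group means. The RIP level of SOCS7 in DMSO is highest in Kelly at 6 days, and among the cultured lines the RIP level of CISH is lowest in NGP while its inputs are alike in the cultured lines.

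STM2457 left the enrichment of the members without a call in any experiment under TMM scaling. The counts were 0 of 7 in Kelly at 1 day (17.2% of all genes called), 0 of 8 in Kelly at 6 days (2.06%) and 0 of 8 in NGP (0%, with 764 genes at an unadjusted p under 0.05). At an unadjusted p under 0.05 edgeR gave SOCS5 in Kelly at 1 day, SOCS7 and CISH in Kelly at 6 days and 0 members in NGP. DESeq2 called SOCS5 in Kelly at 1 day and 0 members elsewhere. In the treated libraries alone, 6 of 7 members were enriched at least 2-fold at 1 day (24.3% of all genes), 5 of 8 in Kelly at 6 days (27.8%) and 4 of 8 in NGP (19.5%).

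The RIP level of SOCS5 in Kelly at 1 day went from 141, 139 and 130 CPM with DMSO to 162, 221 and 218 CPM with STM2457, without overlap. Its enrichment change was 0.49 (95% interval 0.13 to 0.86) with an edgeR adjusted p of 0.0656. The call was made with RLE factors (0.0316), with DESeq2 (0.0167), with no low-count filter (0.0322) and without STM2457 RIP library 1 (0.00395). SOCS4 and SOCS5 were the 2 of 7 members whose STM2457 RIP libraries all lay above the DMSO ones, against 15% of all genes. The other members had enrichment changes between 0.04 and 0.40 under TMM scaling.

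Under TMM scaling the members went in different directions in Kelly at 6 days. SOCS7 had RIP levels of 71.8, 65.6 and 103 CPM with DMSO and 40.0, 50.2 and 24.7 CPM with STM2457, and SOCS3 had 26.7, 20.05 and 22.8 CPM against 9.83, 12.2 and 7.48 CPM. Neither overlapped. Their enrichment changes were -0.92 (-1.76 to -0.07, edgeR adjusted p = 0.258) and -1.04 (-2.12 to 0.04, edgeR adjusted p = 0.322). CISH had 45.5, 50.9 and 44.8 CPM with DMSO and 62.1, 52.0 and 74.1 CPM with STM2457, and an enrichment change of 0.82 (0.02 to 1.62, edgeR adjusted p = 0.291). SOCS1, SOCS3 and SOCS7 were the 3 of 8 members with every treated RIP library below, against 13.9% of all genes, and CISH the 1 of 8 with every one above, against 7.69%. SOCS2, SOCS4, SOCS5 and SOCS6 had values between 0.38 and 0.78. In NGP SOCS3 had RIP levels of 2.00, 0.706 and 0.914 CPM with DMSO and 3.20, 4.05 and 3.65 CPM with STM2457, the 1 of 8 members with every treated RIP library above, against 9.96% of all genes.

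The sign of the enrichment change depended on the scaling. Mitochondrial mRNAs are made outside the reach of METTL3. Each RIP library was scaled so that their share equalled the mean of the inputs of its experiment and treatment. This moved the median of all genes to -1.47 in Kelly at 1 day and -1.93 in Kelly at 6 days, from -0.03 and 0.20 under TMM. All 7 members at 1 day then had values between -1.41 and -0.96 and all 7 were called, as were 61.2% of all genes. Set against the median of all genes, each was still higher, by 0.06 to 0.51. At 6 days the values lay between -3.62 and -1.25, SOCS3 and SOCS7 were called (edgeR adjusted p of 0.0248 and 0.0247), and 28.9% of all genes were. There 5 of 8 members lay above the median of all genes under either scaling, and SOCS1, SOCS3 and SOCS7 below it. In NGP the median moved to -0.21, with 0 members called.

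**Figure D5:**
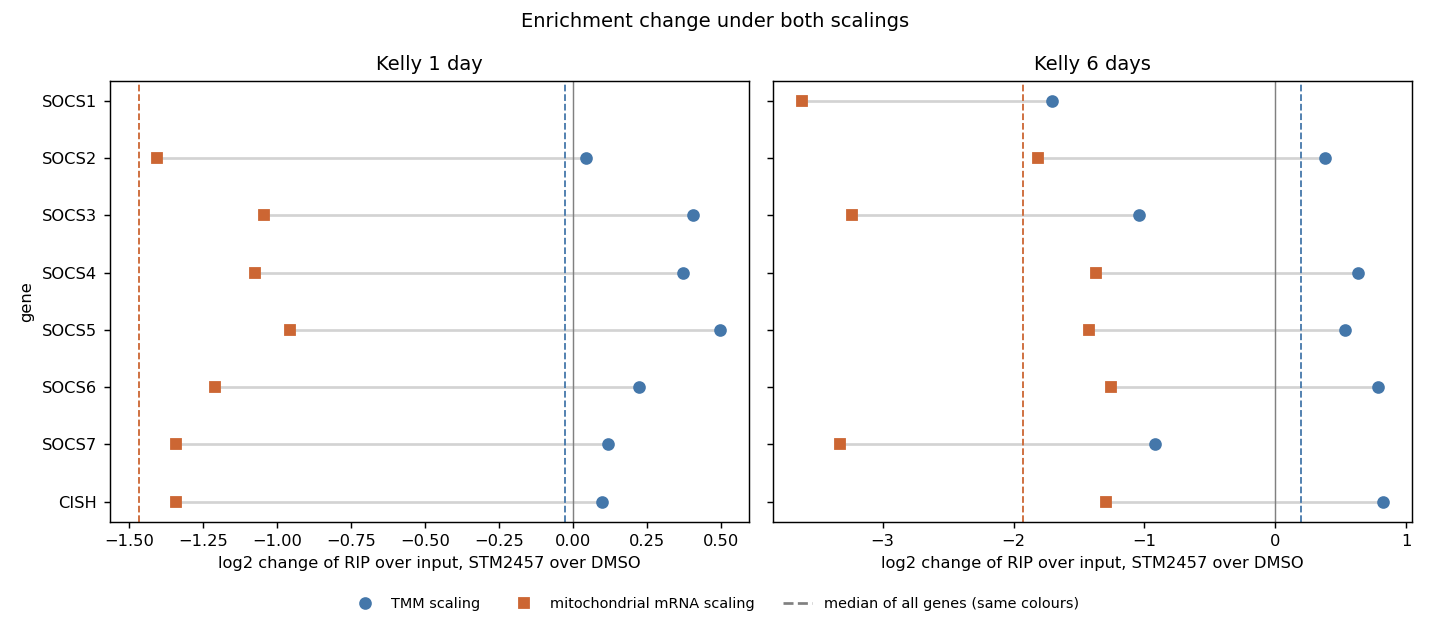
Log2 change of RIP over input with STM2457 (x axis) for each member under TMM scaling (blue circles) and with mitochondrial mRNAs as reference (orange squares), in Kelly at 1 day and 6 days; dashed lines mark the median of all genes in the same colours. The reference moves members and median together: at 1 day the members go from above 0 to below it, and stay right of the median.

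In the xenograft no member could be followed with precision. The test called 0 of 7 members for input change, for DMSO enrichment and for enrichment change, where 0%, 1.61% and 0% of all genes were called, and SOCS1 was under the filter. At an unadjusted p under 0.05 the edgeR fits gave 968 genes for input change and 809 for enrichment change. edgeR at an unadjusted p under 0.05 and DESeq2 also gave 0 members in each. Levels of SOCS2 in inputs were 13.02 and 7.15 CPM with DMSO and 28.8 and 0.466 CPM with STM2457, a 61.9-fold gap between the treated libraries. CISH had 5.12 and 1.65 CPM with DMSO and 0.314 and 11.7 CPM with STM2457. SOCS4 had 35 and 72 counts with DMSO and 5 and 0 counts with STM2457, the 1 of 7 members below in both treated inputs, against 27.7% of all genes. A count of 0 in that library allows up to 1.40 CPM (3 counts, counting error only).

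SOCS2 was called in the inputs with either STM2457 tumour library left out, but its level lay on opposite sides of DMSO. Without library 2 the treated level left was 28.8 CPM, above both DMSO libraries, and without library 1 it was 0.466 CPM, below both. SOCS4 was called with library 1 left out, which left 0 counts. Single libraries decided these calls, and the share of all genes called in such fits is not given here. The lone library left in the treated group is then assumed to vary like the other group. With all 22 inputs in 1 fit, SOCS1 and SOCS4 were called and 2551 of 14224 genes were. SOCS1 had 0 counts in both DMSO inputs and 17 and 0 counts with STM2457, so 1 library made its call. In the RIP libraries SOCS7 had 24.05 and 22.4 CPM with DMSO and 0.214 and 17.7 CPM with STM2457. SOCS3 had 24.05 and 22.1 CPM with DMSO and 0.428 and 0 CPM with STM2457. SOCS6 went the other way, with 0 and 5.77 CPM with DMSO and 22.9 and 10.4 CPM with STM2457. SOCS3, SOCS4, SOCS5 and SOCS7 were the 4 of 7 members with both treated RIP libraries below, against 16.8% of all genes, and SOCS6 the 1 of 7 with both above, against 10.8%. The fitted intervals of the enrichment change ran from -14.0 to 10.9 over the members. Endothelial markers summed to 15.3 and 17.6 CPM in the DMSO tumours and to 9.79 and 12.5 CPM in the treated ones, against at most 3.91 CPM in cultured Kelly cells, and their part in these values was not tested. VWF alone made up most of that sum, with 15.3 to 15.4 CPM in the DMSO tumours and 9.32 to 12.5 CPM in the treated ones, while PECAM1 was at 0 in both DMSO tumours and KDR at 0 in both treated ones. Counts are of human genes, so these sums do not measure the vessels of the mouse.

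Of 63 other genes of the pathway tested in Kelly at 1 day, 17 were higher in the pulldown than in the input and 27 were lower under TMM scaling, where 33.3% and 34.3% of all genes were. Under the mitochondrial reference 24 were higher and 11 lower, against 55.8% and 11.9% of all genes. The 7 lists were JAK kinases, STAT factors, cytokine receptors, other brakes on the pathway, STAT target genes, the ligase subunits that the SOCS box binds and other SOCS box proteins. Under TMM scaling, in Kelly at 1 day, 0 of 3 JAK kinases were higher in the pulldown than in the input and 3 were lower, with a median log2 ratio of -1.63 against -0.07 over all genes. Of 6 STAT factors 0 were higher and 5 were lower, with a median of -2.24. STAT3, the factor that switches on SOCS3, had -3.57. All 6 ligase subunits were lower, with a median of -1.51. With the mitochondrial reference, where the median of all genes was 1.57, the medians of JAK kinases, STAT factors and ligase subunits were 0.01, -0.62 and 0.13, so the sign turned for the first and the last. Under that reference 0 JAK kinases were higher and 1 lower, 2 STAT factors were higher and 3 lower, and 0 ligase subunits were higher and 1 lower.

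After 6 days in Kelly the medians under TMM scaling were -1.70 for JAK kinases, -2.86 for STAT factors and -2.36 for ligase subunits, against -0.10 over all genes. With the mitochondrial reference all 3 turned positive, at 3.09, 2.12 and 2.83, and lay under the median of all genes of 4.77. In NGP JAK kinases had a median of -0.98 and STAT factors one of -1.20 under TMM scaling, and -0.17 and -0.47 with the mitochondrial reference. Ligase subunits had 0.19 there under TMM scaling, against 0.08 over all genes, with 1 of 6 higher and 1 lower, where 29% and 26.5% of all genes were. Under the mitochondrial reference they had 0.94, against 0.857 over all genes, with 4 of 6 higher and 1 lower, where 45.2% and 9.98% of all genes were.

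Proteins that share the SOCS box but not the SH2 domain had the highest median of the 7 lists in Kelly at both times and in NGP, under TMM scaling throughout. Of 12 tested in Kelly at 1 day, 6 were enriched at least 2-fold and 4 passed the test below 0, with a median of 1.499. Over all genes the shares were 26.3% and 34.3%. SPSB2, an adaptor that targets inducible nitric oxide synthase, had 3.63 in Kelly at 1 day and 4.24 in Kelly at 6 days. ASB8 had 3.02 in Kelly at 1 day, and WSB1 had -3.72 in Kelly at 6 days. After 6 days in Kelly 6 of 11 were enriched at least 2-fold (25.8% of all genes), and in NGP 4 of 12 (20.9%). ASB7 was the most enriched of them in NGP, at 2.12. Of 16 cytokine receptors tested in Kelly at 1 day 5 were higher and 2 lower (33.3% and 34.3% of all genes), with a median of 0.08. Of 13 in NGP 3 were higher and 2 lower (29% and 26.5% of all genes). CNTFR, the ciliary neurotrophic factor receptor, had -3.39 in Kelly at 1 day and -2.15 in NGP. Of the STAT targets, JUNB had 3.14 in Kelly at 1 day and PIM3 had -2.00 in NGP.

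With STM2457, the inputs of Kelly at 1 day had 6 of 60 tested genes of the 7 lists called, those of Kelly at 6 days 14 of 56 and those of NGP 1 of 56. The shares over all genes were 17.5%, 26.6% and 4.23%. At 1 day the highest were SPSB4 at 0.38 and RNF7, a ligase subunit, at 0.36. In Kelly at 6 days CSF3R, the receptor for granulocyte colony-stimulating factor, fell by 0.85 on the log2 scale. The elongins ELOB and ELOC fell by 0.77 and 0.56, and SPSB4 rose by 0.56. In NGP SPSB4 alone was called, at 1.05. JAK kinases and STAT factors had 0 calls in either direction in Kelly at 1 day and in NGP, and 2 rises in Kelly at 6 days.

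The genes whose input pattern was most like that of a member were found by Pearson correlation of log2(CPM + 1) over the 22 inputs. These points share experiments and depth, so the correlations describe the order of the experiments and carry no test. SOCS7 was most like ZBTB39 (r = 0.981), KLF13 (0.980) and KAT6A (0.980), and SOCS4 most like VPS13A (0.980), CRY1 (0.976) and GLOD4 (0.975). SOCS2 was most like TLE1 (0.960), SOCS6 most like SUCO (0.952), SOCS5 most like CFL2 (0.918) and SOCS3 most like CENPM (0.910). CISH had the least close match, CCDC25 (0.858). SOCS1 was under the level set for this search.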

How the data were processed

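Fragment counts per gene were used as the authors deposited them. Per the file headers, featureCounts counted paired fragments over exons by gene name, without strand, on GENCODE 33 protein-coding genes. The submitters' processing notes name FastQC 0.11.5, Trimmomatic 0.36, HISAT2 2.1.0, Subread 1.5.3, deepTools 2.0 and GRCh38. CPM and FPKM were computed from the counts and exon lengths. Counts of each comparison were filtered with filterByExpr (minimum count 10, minimum total 15), scaled by TMM and tested with edgeR 4.0.16 (quasi-likelihood, R 4.3.3), with Benjamini-Hochberg adjustment over all genes tested and a threshold of 0.05. Enrichment is the RIP term and its change the interaction of RIP and treatment. The step was tested on simulated data. RLE factors, DESeq2 1.42.0, no filter, a replicate block, 13 mitochondrial mRNAs as reference, all 22 inputs in 1 fit and leaving out each library were alternatives. Spike-ins were not analysed here. Of 40 replicate pairs the most alike still differed beyond sampling noise (chi-square per degree of freedom 2.73). Sequences came from GENCODE 44, in which 77 of 80 member exons are identical.

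The members and gene lists were chosen with earlier results of these data known. Named genes are all members, METTL3, up to 6 called list genes per comparison with the largest change at a mean of at least 2 log2 CPM, and for each member with a mean of at least 5 CPM the 3 genes most alike. TMM assumes that most genes keep their RIP ratio, so a shift common to all genes is not seen. The header folder of each file separates the experiments. Counting intervals cover counting error only.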

Additional observations from a re-analysis of the deposited data

Results flagged for a closer look

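SOCS7 and CISH were flagged because their DMSO enrichment differed between experiments when the difference itself was tested, a comparison chosen after seeing the data. Between the Kelly time points 1 of 8 members was called, against 24.4% of all genes, and between the lines 2 of 8, against 46.1%. The log2 enrichment of SOCS7 was higher in Kelly at 6 days than in Kelly at 1 day by 2.91 and than in NGP at 6 days by 2.52, with edgeR Benjamini-Hochberg adjusted p-values of 1.33e-05 and 2.71e-05. That of CISH was higher in Kelly at 6 days than in NGP by 2.43, with an edgeR adjusted p of 0.00136. Each RIP library set against the mean of its inputs gave SOCS7, on the log2 scale, -0.96, -1.05 and -1.39 in Kelly at 1 day, 1.52, 1.39 and 2.04 in Kelly at 6 days, and -0.36, -0.61 and -0.93 in NGP. CISH had 3.19, 3.35 and 3.17 in Kelly at 6 days and 1.58, 0.96 and 0.21 in NGP. The libraries of these groups did not overlap, an arrangement whose share over all genes was not counted. Header folder and experiment cannot be told apart, nor header folder and library type in Kelly at 1 day.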

How the results depend on the processing

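Most of the values tallied kept their direction and their side of the threshold. With 1 library left out 22 changed sign, and under other settings 15 did. The tally left out the enrichment change in NGP, the STM2457 and RIP comparisons of the xenograft, and the differences of input responses. For the level in tumours it held SOCS2 and SOCS7, and for the differences of DMSO enrichment SOCS7 and CISH only. Outside the tally, the mitochondrial reference turned the enrichment change in NGP to -0.11 for SOCS2 and -0.0032 for SOCS4. In the xenograft it was -0.022 for SOCS5 under that reference. For the enrichment change in Kelly at 1 day, 1 member (SOCS5) was called with RLE factors, with DESeq2 and with no low-count filter, 7 with the mitochondrial reference, and 0 to 1 with 1 library left out. With the mitochondrial reference 2 members were called in Kelly at 6 days, against 28.9% of all genes. In NGP 5 members were enriched under it, where 45.2% of all genes passed the test above 0. The share of all genes enriched at least 2-fold under it is not given here. Under the same reference 7 and 8 members differed in DMSO enrichment between Kelly time points and between lines, against 82.4% and 77.2% of all genes. That reference turned the enrichment change in Kelly at 1 day to -1.41 (SOCS2), -1.04 (SOCS3), -1.07 (SOCS4), -0.96 (SOCS5), -1.21 (SOCS6), -1.34 (SOCS7) and -1.34 (CISH), and in Kelly at 6 days to -1.81 (SOCS2), -1.37 (SOCS4), -1.42 (SOCS5), -1.25 (SOCS6) and -1.29 (CISH). It turned DMSO enrichment to 0.58 for SOCS7 in Kelly at 1 day, and to 0.60 for SOCS1 and 0.0899 for SOCS7 in NGP. By construction it ties the scale to 13 genes, and which scale fits the RIP libraries was not tested. With all 22 inputs in 1 fit, 2 members were called for the xenograft input change, SOCS4 and SOCS1, the latter with counts in only 1 xenograft input. With 1 library left out at a time, members called ranged from 0 to 2 for that change, from 2 to 5 for the tumour against cultured Kelly level, from 3 to 5 for enrichment in NGP and from 1 to 2 for the difference in DMSO enrichment between Kelly time points. Input changes then ranged from -0.0022 to 0.29 for SOCS6 in Kelly at 1 day. For the later Kelly libraries they ranged from -0.05001 to 0.0925 for SOCS3, from -0.0315 to 0.15 for SOCS4 and from -0.30 to 0.0386 for CISH. In NGP they ranged from -0.92 to 0.34 for SOCS1, from -0.25 to 0.35 for SOCS5 and from -0.42 to 0.54 for CISH. Enrichment of SOCS3 in NGP ranged from -0.49 to 1.13. Enrichment changes in Kelly at 1 day ranged from -0.14 to 0.25 for SOCS2, from -0.0838 to 0.28 for SOCS7 and from -0.0522 to 0.36 for CISH, and in Kelly at 6 days from -0.0383 to 0.56 for SOCS2. Apart from the mitochondrial reference and the left-out libraries, the causes were not tested. Same-numbered samples correlated in their deviations by -0.37 to 0.18 between inputs in culture and by -0.12 to 0.28 between input and RIP. In each set of pairs the lowest lay at or below 0.015. In Kelly at 6 days same-numbered pairs of input and RIP ran from 0.0013 to 0.10 with DMSO and from 0.015 to 0.28 with STM2457. Pairs of unlike number ran from -0.094 to 0.061 and from -0.22 to 0.042. With 2 or 3 libraries a group, these values cannot decide whether samples were paired. With the replicate number as a block, 4 of 8 members in place of 5 differed between NGP and Kelly, since SOCS1 had an edgeR adjusted p of 0.0762, and no other member count changed. Low counts limit SOCS1 in Kelly at 1 day (1 to 5 counts in DMSO inputs) and SOCS3 in NGP (0 to 25), and the spread between 2 tumour libraries a group limits the xenograft values.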
